A study of Arabidopsis thaliana with 10 samples.

Results

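IAA29, WES1 and GH3.3 are 3 auxin response genes of Arabidopsis thaliana, picked by gene symbol in the array's annotation. Each was read by 1 probe set, 253423_at for IAA29 (AT4G32280), 253908_at for WES1 (AT4G27260, also called GH3.5) and 245076_at for GH3.3 (AT2G23170), so 3 of the 22746 probe sets tested are described here. The arrays were made from whole seedlings of 5 lines, harvested at 12 days of age from unstressed plants grown under a 16 h photoperiod, with 2 biologically independent arrays per line and 10 in all. FL3 carried a constitutively expressed full-length TaSIN transgene. In dC26 and dC27, whose names the labels write with a Δ, the constitutively expressed TaSIN lacked its transmembrane motif. VC was a transgenic line with an empty vector and Col-0 was the untransformed wild type, and these 2 lines served together as controls. Full-length TaSIN is represented by 1 transgenic line, the promoter of the transgene is not given in the sources used here, and no probe set was named for TaSIN, so its level was not measured.

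Auxin acts by bringing Aux/IAA repressor proteins to its receptors, which marks the repressors for destruction and frees the auxin response factors that drive transcription. Many Aux/IAA and GH3 genes are themselves switched on by this release, so that they serve as readouts of auxin signalling and also feed back on it. IAA29 encodes an Aux/IAA repressor and is known in seedlings as a gene raised by shade and warmth through phytochrome-interacting factors. WES1 and GH3.3 encode amido synthetases that join auxin to amino acids and so lower the pool of free hormone, and WES1 also acts on salicylic acid.

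Each value is a probe set's intensity, deposited on a linear scale. Array medians lay between 41.7 and 44.2. Replicate arrays differed least in FL3 and most in dC27, with SDs over probe sets of 0.206 and 0.415 for the log2 difference within the pair. Differences were tested on log2(intensity + 16) with limma, and a call means a Benjamini-Hochberg adjusted p under 0.05 over all 22746 probe sets. Every log2 difference below is on that scale, each contrast with the controls uses the same 4 control arrays, and p-values rest on the spread between 2 arrays per line pooled over the lines.

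Over the 2 lines with truncated TaSIN together, all 3 genes were lower than in the controls. In FL3 none of the 3 passed the test, where 2.69% of probe sets were called and 0.488% were called lower. WES1 came just short there (limma, adjusted p = 0.053). The direct comparison of FL3 with the truncated lines called none of the 3 either. The log2 changes of IAA29, WES1 and GH3.3 were -1.63 ± 0.28, -1.39 ± 0.12 and -1.05 ± 0.13 (SE) over dC26 and dC27, which corresponds to 3.1-fold, 2.62-fold and 2.07-fold lower values on this scale (limma, adjusted p = 0.0054, 0.00023 and 0.0017). Of all probe sets, 13.1% were called in this contrast and 6.15% were called lower, against 3 of these 3 genes, which were selected with that result already known. The GH3.3 call ended in a 2-group fit, at -1.05 (adjusted p = 0.078). It also ended without both dC27 arrays, which leaves dC26 alone, at -0.59 (adjusted p = 0.052). The GH3.3 value ran up to -1.45 against VC alone. The steepest fall of WES1 was in dC26 and those of IAA29 and GH3.3 were in dC27. In dC27 alone all 3 genes passed, with 8.49% of all probe sets called lower. In dC26 alone, with 0.8% called lower, WES1 passed, and IAA29 and GH3.3 did not (limma, adjusted p = 0.086 and 0.095). The SEs above rest on the spread of arrays within lines and leave out the difference between dC26 and dC27. Because whole seedlings were used, fewer cells that express a gene and less RNA per cell cannot be told apart.

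IAA29 read 320 and 312 on the FL3 arrays, 111 and 96.0 on the dC26 arrays and 27 and 101 on the dC27 arrays, against 301 and 247 on the VC arrays and 339 and 207 on the Col-0 arrays. All 4 arrays of the truncated lines lay below all 4 control arrays, and both FL3 arrays lay within the control range. Of all probe sets, 6.65% had every dC array below every control array. The log2 change was -2.01 ± 0.34 (SE) in dC27 (limma, adjusted p = 0.0040). In dC26 the difference of -1.26 ± 0.34 did not pass (adjusted p = 0.086). It passed without dC27 replicate 1, without dC27 replicate 2 and without both (adjusted p = 0.0066, 0.0066 and 0.0062), fits whose shared spread no longer holds the gap between those 2 arrays. The FL3 difference of 0.22 ± 0.34 did not pass either (adjusted p = 0.88), with a 95% interval from -0.54 to 0.98. Ranked by the size of the change in the truncated lines, IAA29 stood at place 25 from the lowest among 22746 probe sets.

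The pair of dC27 arrays disagreed on IAA29 more than on the other 2 genes. Replicate 1 was lower than replicate 2 by a log2 difference of -1.44, and 1.71% of probe sets differed at least as much between these 2 arrays. Without dC27 replicate 1 the change in dC27 was -1.28, and without dC27 replicate 2 it was -2.73, and the call held in both fits (limma, adjusted p = 0.0085 and 6.4e-05). The 5 lines ranked FL3, VC, Col-0, dC26 and dC27 from the highest IAA29 level to the lowest. None of the 4 neighbouring pairs in that order differed past the threshold, the widest gap being the log2 difference of 1.24 ± 0.39 between Col-0 and dC26 (adjusted p = 0.14).

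WES1 read 522 and 487 on the FL3 arrays, 190 and 229 on the dC26 arrays and 407 and 398 on the dC27 arrays, against 678 and 937 on the VC arrays and 806 and 756 on the Col-0 arrays. Every array of the 3 TaSIN lines lay below every control array, and the dC26 arrays were the lowest. Of all probe sets, 12.2% had both dC26 arrays below all control arrays and 18.7% had both dC27 arrays there. WES1 fell by 1.84 ± 0.14 (SE) on the log2 scale in dC26, or 3.58-fold, and by 0.94 ± 0.14 in dC27, or 1.92-fold (limma, adjusted p = 0.00051 and 0.0025). In dC26 it was at place 5 from the lowest of all probe sets and was the only one of the 3 genes to pass, against 0.8% of probe sets called lower. In dC27 all 3 genes passed, against 8.49% of probe sets called lower.

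In FL3 the WES1 difference was -0.63 ± 0.14, which came just short of the threshold (limma, adjusted p = 0.053). Over all genes in this contrast 2.69% of probe sets were called. Of the 3 genes 0 were, and 1, WES1, had an unadjusted p under 0.05, as did 3000 of all 22746 probe sets. The FL3 arrays of WES1 did not overlap the control arrays, which was so in the same direction for 11.6% of probe sets. Several alternative settings moved this difference to the other side of the threshold. VC and Col-0 differed by 0.03 ± 0.17 on the log2 scale, with a 95% interval from -0.34 to 0.40. From the highest level to the lowest, WES1 ranked VC, Col-0, FL3, dC27 and dC26, and of these neighbours only dC27 and dC26 differed past the threshold.

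GH3.3 read 358 and 407 on the FL3 arrays, 286 and 265 on the dC26 arrays and 118 and 163 on the dC27 arrays, against 512 and 621 on the VC arrays and 365 and 274 on the Col-0 arrays. Only the dC27 arrays lay below all the control arrays, while dC26 and FL3 overlapped the Col-0 arrays. GH3.3 fell by 1.5 ± 0.16 (SE) on the log2 scale in dC27, or 2.84-fold (limma, adjusted p = 0.00064). The differences of -0.59 ± 0.16 in dC26 and -0.14 ± 0.16 in FL3 did not pass (adjusted p = 0.095 and 0.82).

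The control lines themselves were apart in GH3.3, with VC above Col-0 by 0.80 ± 0.19 on the log2 scale, a difference short of the threshold (limma, adjusted p = 0.32, unadjusted p = 0.0019). In that contrast 0.0264% of probe sets and 0 of the 3 genes were called. GH3.3 was the 1 gene of the 3 with an unadjusted p under 0.05, as had 1594 of all 22746 probe sets. The choice of control therefore bears on its values. Against VC alone GH3.3 was lower in dC26 by a log2 change of -0.99 ± 0.19 (adjusted p = 0.047, with 0.281% of probe sets called lower), whereas against Col-0 alone the difference was -0.19 ± 0.19 with a 95% interval from -0.62 to 0.24 (adjusted p = 0.67). In dC27 the call held against either control line, with -1.91 against VC and -1.10 against Col-0 (adjusted p = 0.00071 and 0.0059), contrasts in which 5.55% and 6.72% of probe sets were called lower. The FL3 difference was -0.55 against VC and 0.26 against Col-0, and neither passed (adjusted p = 0.26 and 0.67).

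**Figure D1:**
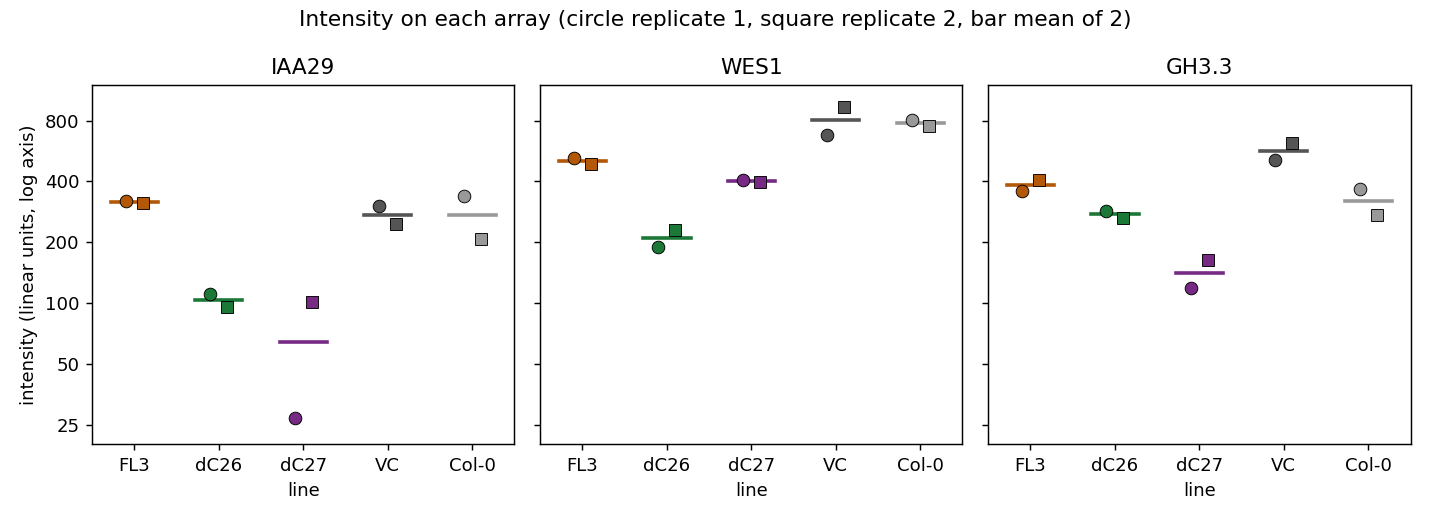
Intensity of IAA29, WES1 and GH3.3 (linear units on a log axis) on each of the 10 arrays, by line, with circles for replicate 1, squares for replicate 2 and bars for the mean of the 2 arrays. WES1 is lowest in dC26, at 190 and 229, GH3.3 is lowest in dC27, at 118 and 163, and the IAA29 arrays of dC27 are far apart, at 27 and 101.

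The 2 truncated lines were then set against each other. WES1 was lower in dC26 than in dC27 by a log2 difference of -0.90 ± 0.17 (SE), at 210 ± 27.6 and 402 ± 6.70 (SD, n = 2 each), and GH3.3 was higher in dC26 by 0.91 ± 0.19, at 275 ± 15.4 and 140 ± 31.6 (limma, adjusted p = 0.025 and 0.038). These 2 auxin-conjugating enzyme genes thus differed between the lines in opposite directions, with no overlap of arrays in either gene. Of all probe sets 2.95% were called in this contrast, and with 2 arrays a side 20.3% had both dC26 arrays lower and 22.9% had both higher. Both calls were close to the threshold. That of WES1 ended without either FL3 array, either dC26 array or dC27 replicate 1, and that of GH3.3 without either VC array, either FL3 array, either dC26 array or dC27 replicate 1 (adjusted p from 0.051 to 0.13 over these fits). IAA29 was at 104 ± 10.9 in dC26 and 64.1 ± 52.4 in dC27, and the gap of 0.75 ± 0.39 on the log2 scale was short of the threshold (adjusted p = 0.36), with a 95% interval from -0.12 to 1.62.

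Full-length TaSIN was compared with truncated TaSIN directly. All 3 genes were higher on both FL3 arrays than on all 4 arrays of the truncated lines, which held in that direction for 8.16% of probe sets. The log2 differences were 1.85 ± 0.34 for IAA29, 0.76 ± 0.14 for WES1 and 0.90 ± 0.16 for GH3.3 (SE), and 0 of the 3 were called (limma, adjusted p = 0.074, 0.082 and 0.074). The test called 0.207% of probe sets in this contrast. All 3 genes had an unadjusted p under 0.05, as did 2446 of all 22746 probe sets. Without dC27 replicate 2 the 3 differences were 2.21, 0.75 and 1.01, and without dC27 replicate 1 that of IAA29 was 1.49. Either fit leaves a single dC27 array, so its shared spread no longer holds the gap between the 2 dC27 arrays. Set against the single lines, FL3 was higher than dC27 in IAA29 by 2.23 ± 0.39 and in GH3.3 by 1.36 ± 0.19, and higher than dC26 in WES1 by 1.21 ± 0.17 (adjusted p = 0.039, 0.016 and 0.023). The share of probe sets called higher was 0.497% for FL3 minus dC27 and 0.044% for FL3 minus dC26. FL3 and dC27 differed in WES1 by 0.31 ± 0.17, which did not pass (adjusted p = 0.44).

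**Figure D2:**
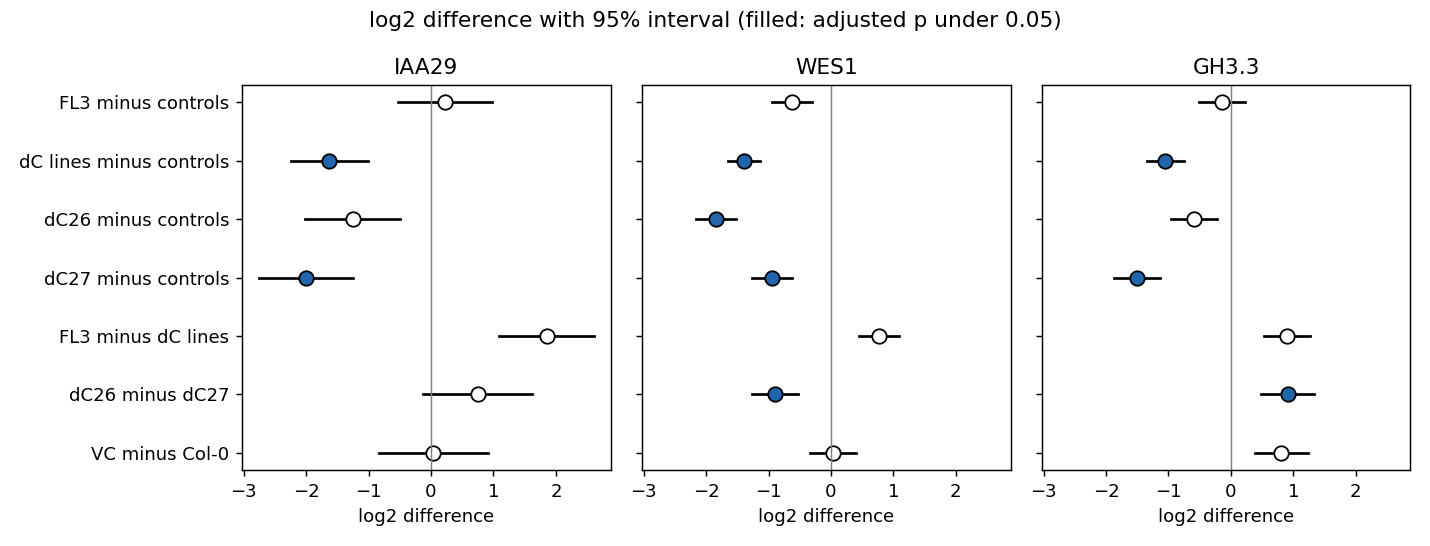
log2 difference (points, on log2(intensity + 16)) with its 95% interval (lines) for each of 7 contrasts in IAA29, WES1 and GH3.3, filled where the adjusted p was under 0.05. The dC26 minus dC27 difference is -0.90 for WES1 and 0.91 for GH3.3, and every interval of FL3 minus dC lines lies above 0 though no point there is filled.

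Other genes of the 2 families were examined next. Of 14 GH3 genes listed, 7 had a probe set paired with that gene alone, and 3 of the 7 fell in the truncated lines: WES1, GH3.3 and GH3.17, which encodes an amido synthetase with a preference for glutamate as the amino acid. Of all probe sets 6.15% were called lower there, and WES1 and GH3.3 were chosen with this result known, so GH3.17 is the 1 addition among the other 5 genes. GH3.17 read 95.7 and 99.9 on the FL3 arrays, 93.8 and 97.3 on the dC26 arrays and 101 and 114 on the dC27 arrays, against 161 and 177 on the VC arrays and 150 and 160 on the Col-0 arrays. All 6 arrays of the TaSIN lines lay below all 4 control arrays and close to each other. Of all probe sets, 11.6% had both FL3 arrays below all control arrays, 12.2% both dC26 arrays and 18.7% both dC27 arrays. The share with all 6 arrays there was not counted. GH3.17 fell by 0.64 ± 0.12 (SE) on the log2 scale in FL3, by 0.67 ± 0.12 in dC26 and by 0.52 ± 0.12 in dC27 (limma, adjusted p = 0.022, 0.024 and 0.015). The share of probe sets called lower was 0.488% in FL3, 0.8% in dC26 and 8.49% in dC27.

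The changes of GH3.17 were similar in size in the 3 TaSIN lines, unlike those of WES1 and GH3.3. Its FL3 minus dC lines difference was -0.04 ± 0.12, with a 95% interval from -0.31 to 0.22, and its dC26 minus dC27 difference was -0.15 ± 0.14 (limma, adjusted p = 0.93 and 0.63). The call in FL3 ended without any 1 of the 4 control arrays or either FL3 array (adjusted p from 0.053 to 0.23). The call in dC26 ended without any 1 of the 4 control arrays, either FL3 array or dC26 replicate 2 (from 0.054 to 0.17), and that in dC27 without Col-0 replicate 1 or dC27 replicate 1 (0.051 and 0.099). All 3 also ended against Col-0 alone (0.070, 0.057 and 0.051). The call for the truncated lines together, a log2 change of -0.60 ± 0.10 (adjusted p = 0.0043), held whichever array was left out.

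The other 4 GH3 genes, GH3.1, GH3.9, AT5G51470 and AT1G23160, had control means between 6.03 and 10.03, below the pseudocount, and their differences in the truncated lines lay between -0.02 and 0.08. At such intensities this scale compresses any change. The median log2 difference over the 7 GH3 genes was -0.02 in the truncated lines, against 0.0032 over all probe sets, and in FL3 it was -0.0018 against -0.0052.

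Of 29 Aux/IAA genes listed, 7 had a named probe set, and IAA29 was the only one that fell in the truncated lines together. IAA18, another Aux/IAA repressor gene, read 188 and 205 in FL3, 191 and 257 in dC26 and 150 and 152 in dC27, against 213 and 228 in VC and 238 and 259 in Col-0. The arrays of FL3 and dC27 lay below all control arrays, with those of dC27 the lowest. Of all probe sets, 11.6% had both FL3 arrays there and 18.7% both dC27 arrays, and 8.49% were called lower in dC27. IAA18 fell by 0.58 ± 0.13 (SE) on the log2 scale in dC27 (limma, adjusted p = 0.016), a call that ended without Col-0 replicate 1 or either dC27 array (adjusted p = 0.054, 0.060 and 0.063) and against VC alone (0.068). Its differences of -0.07 in dC26 and -0.23 in FL3 did not pass (adjusted p = 0.84 and 0.54). The remaining 5, IAA20, IAA30, IAA31, IAA33 and IAA34, had control means between 6.67 and 24.6, and their differences in the truncated lines lay between -0.19 and 0.02. Over the 7 genes the median log2 difference was -0.05 in the truncated lines.

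**Figure D3:**
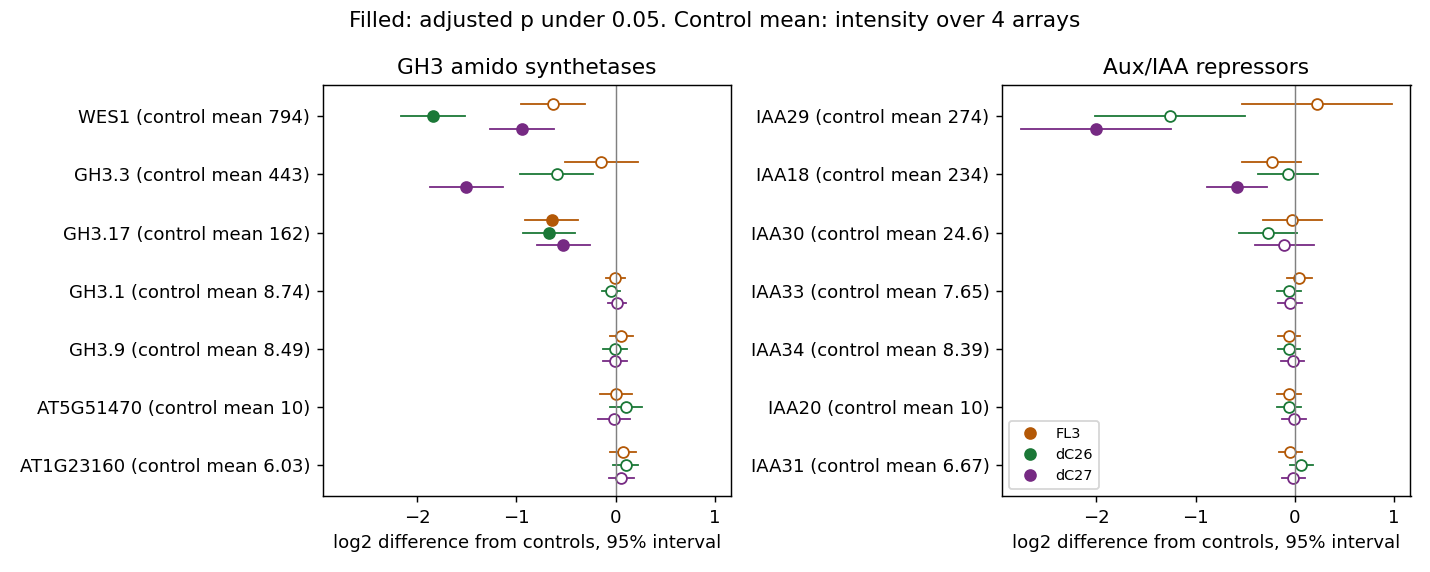
log2 difference from the controls with its 95% interval in FL3, dC26 and dC27 for the 7 GH3 genes and the 7 Aux/IAA genes with a named probe set, filled where the adjusted p was under 0.05, with each gene's mean intensity over the 4 control arrays. GH3.17 lies between -0.67 and -0.52 in all 3 lines, while WES1 and GH3.3 spread from -1.84 to -0.63 and from -1.5 to -0.14, and the genes with control means under 25 lie between -0.27 and 0.10, with no filled point.

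The wider auxin pathway was covered thinly by the annotation used here. Of 229 genes in 10 lists on auxin synthesis, transport, perception, response, conjugation and linked shade and salicylate responses, 24 had a named probe set, and 21 of them were neither IAA29, WES1 nor GH3.3. Of these 21, 13 had a mean intensity below 16. In the truncated lines 0 of the 21 rose and 1 fell, which was GH3.17, or 4.76%, near the 6.15% of all probe sets called lower (limma). An unadjusted p under 0.05 was reached by 3 of the 21 and by 6263 of all 22746 probe sets. In dC27 alone 3 of the 21 fell, GH3.17, IAA18 and HAT2, or 14.3%, against 8.49% of all probe sets called lower in that contrast. HAT2 encodes a homeodomain-leucine zipper protein that is known as auxin-inducible, and it read 123 and 299 on the dC27 arrays against 458 and 501 on the VC arrays and 297 and 523 on the Col-0 arrays.

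The arrays of HAT2 in dC27 overlapped those of Col-0. HAT2 fell by 1.11 ± 0.32 (SE) on the log2 scale there (limma, adjusted p = 0.044). The call held without Col-0 replicate 2 or dC27 replicate 2 and ended without any other array and under 8 of 12 other settings, and without dC27 replicate 1 the difference was -0.52 (adjusted p = 0.30). In dC26 the difference was 0.13 and in FL3 0.03, and neither passed (adjusted p = 0.88 and 0.99). The 4 measured synthesis genes were YUC2, YUC4, YUC6 and YUC11, which encode flavin monooxygenases that make auxin. Auxin inactivation was read by 4 genes, AT1G14130, AT1G14120, UGT84B1 and UGT74D1. None of these genes, nor the 1 transport regulator WAG2, passed in FL3, the truncated lines together, dC26 or dC27. The other genes listed for conjugate release and inactivation, including those of release, had no named probe set. Median differences in the truncated lines were -0.08 over the synthesis genes and 0.04 over the 4 inactivation genes. SAUR genes, auxin receptors, auxin response factors and salicylate response genes were not analysed here, since none had a probe set named for it alone.

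Genes with a profile close to each of the 3 were then sought by the root mean square difference over the 10 arrays, after each profile was centred on its mean in the 4 control arrays, among 6709 other probe sets with 1 gene and a mean intensity of at least 32. Closest to IAA29 were AT2G25200, AT5G12050, AT5G19120, AT2G38820 and AT2G05540, at 0.42 to 0.50 on the log2 scale. Their log2 differences from the control mean lay between -1.89 and -1.39 in dC27, against -2.01 for IAA29. They lay between -0.83 and -0.51 in dC26 and between -0.50 and -0.13 in FL3, against -1.26 and 0.22 for IAA29. Closest to WES1 were AT5G39020, AT4G07820, CYP71B23 (a cytochrome P450 gene), AT3G57700 and AT4G22610, at 0.44 to 0.47. Of these, only AT4G22610 was lower in dC26 than in dC27, as WES1 was. The log2 differences of the others lay between -1.21 and -0.93 in dC26, against -1.84 for WES1. In dC27 each of them was lower than in dC26, between -1.42 and -1.24, against -0.94 for WES1. Closest to GH3.3 were AT3G22060, AT2G05540, AT1G78170, AT5G58570 and AT3G62110, at 0.33 to 0.34.

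AT2G05540 stood among the 5 closest profiles of both IAA29 and GH3.3, with log2 differences from the control mean of -0.32 in FL3, -0.83 in dC26 and -1.64 in dC27. GH3.3 itself was at 0.55 from IAA29, with 15 probe sets closer to IAA29 than it was. Seen from GH3.3, 464 probe sets were closer than IAA29 and 2140 closer than WES1. WES1 was at 0.77 from IAA29, with 226 probe sets closer to IAA29 than it was, and at 0.71 from GH3.3. Seen from WES1, 395 probe sets were closer than GH3.3 and 742 closer than IAA29. The profile of WES1, the one gene of the 3 with its lowest level in dC26, was thus the most distant of the 3. These distances describe the arrays and carry no test.

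Markers of the seedling's parts were read beside these results, 2 for photosynthetic tissue and 2 for root hairs. LHCB4.1, a light-harvesting protein gene, averaged 4741 ± 34.3 on the FL3 arrays, 5331 ± 344 on the dC26 arrays and 3802 ± 15.9 on the dC27 arrays, against 5570 ± 349 in VC and 5191 ± 29.8 in Col-0 (SD, n = 2 each). It fell in dC27 by 0.50 on the log2 scale (limma, adjusted p = 0.012). RCA, the gene of Rubisco activase, had a difference of -0.15 there that did not pass (adjusted p = 0.46). The root hair expansin genes EXPA18 and EXPA7 averaged 36.9 and 22.1 over the arrays of the truncated lines, against 20.4 and 11.8 over the controls, and neither difference passed (adjusted p = 0.060 and 0.20). The part of these markers in the changes of IAA29, WES1 and GH3.3 was not tested.

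**Figure D4:**
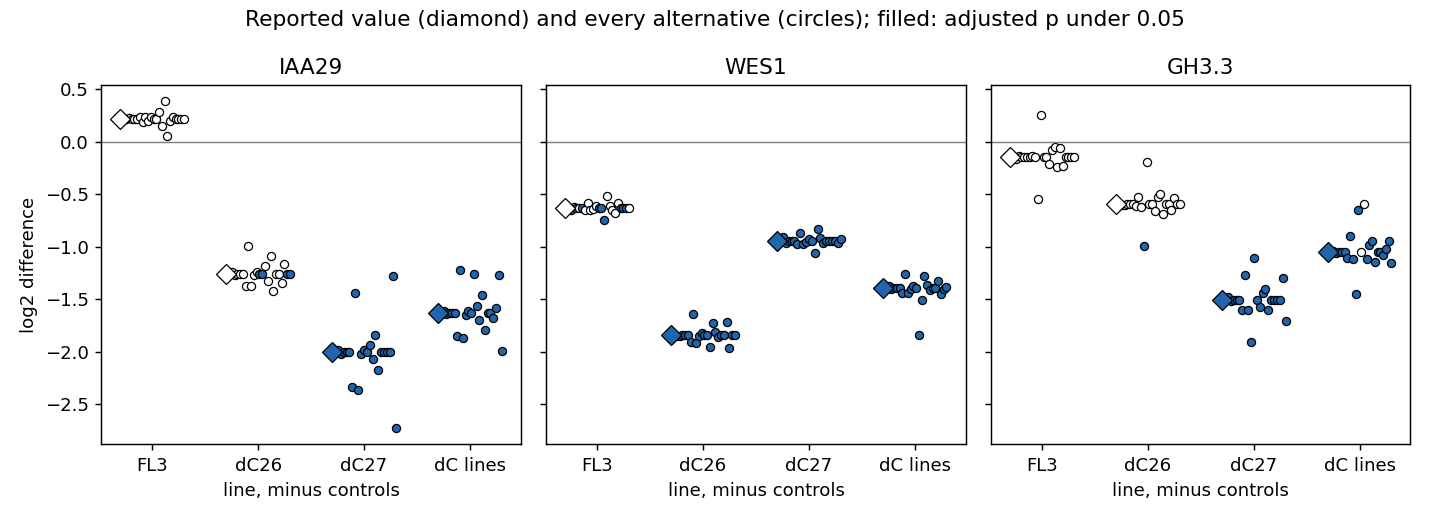
log2 difference from the controls of IAA29, WES1 and GH3.3 in FL3, dC26, dC27 and both truncated lines, as reported (diamonds) and under each alternative setting or left-out array (circles), filled where the adjusted p was under 0.05. All circles of dC27 are filled for the 3 genes, and the values of GH3.3 in FL3 lie on both sides of 0, from -0.55 to 0.26.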

How the data were processed

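Per the labels' protocols, total RNA of 12-day-old seedlings was Trizol-extracted, amplified from 200 ng, biotin-labelled and hybridised to Affymetrix arrays. The authors deposited 1 intensity per probe set and array, on a linear scale judged from the values (3.68 to 12648). The sources used here do not give their summary and normalization, so the treatment of background and the scaling are unknown. Of 22810 probe sets, 64 controls were left out. The platform annotation paired 13513 of the rest with 1 gene, 503 with several and 8730 with none, and 13436 were matched to a TAIR10.1 locus. No sequences were used here.

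Values were taken as log2(intensity + 16), which understates changes of dim probe sets (34.8% of values were below 16). A mean per line was fitted over 10 arrays with limma 3.58.1 (R 4.3.3) and an intensity trend (5 residual degrees of freedom), two-sided, with Benjamini-Hochberg adjustment over 22746 probe sets per contrast. Controls are the mean of VC and Col-0. The number of arrays limits the precision. The fit was tested on simulated data. Figures were drawn with matplotlib 3.10.9.

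The 3 genes and the lists were chosen with earlier results of these data known. Named were the GH3 and Aux/IAA genes with a probe set of their own, and up to 4 called genes of each other list. The 5 closest profiles per gene were named too. The measured genes of auxin synthesis, transport and inactivation were also named, although none was called. Alternatives were other pseudocounts and variance priors, the dimmest probe sets removed, median centring, quantile normalization, a block for the replicate number, single control lines, a 2-group fit and leaving out each array. Leaving out both dC27 arrays was chosen after seeing the data, and dC26 alone then stands for the truncated lines. Deviations of same-numbered arrays correlated between -0.20 and 0.09 over the 10 pairs of lines, so the numbers were not taken to pair arrays.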

Additional observations from a re-analysis of the deposited data

Results flagged for a closer look

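The difference between dC26 and dC27 passed its own test in 2 of the 3 genes, in opposite directions. Of all probe sets 2.95% were called in this contrast. Both calls were close to the threshold and ended in the 2-group fit. WES1 was lower in dC26 than in dC27, with a log2 difference of -0.896, and GH3.3 was higher in dC26, with a log2 difference of 0.913 (limma, adjusted p = 0.025 and 0.038).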

How the results depend on the processing

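The falls in dC27 of IAA29, WES1 and GH3.3 passed under all alternatives run, as did those of IAA29 and WES1 in the truncated lines together and of WES1 in dC26. For GH3.3 in the truncated lines the 2-group fit, whose spread includes that between lines, gave -1.05 and the fit without both dC27 arrays -0.59, and neither passed (limma, adjusted p = 0.078 and 0.052). WES1 in FL3 passed at -0.65 after quantile normalization and at -0.63 with the dimmest probe sets removed, with a robust prior, in the 2-group fit and without both dC27 arrays (adjusted p from 0.043 to 0.05), and leaving out single arrays gave -0.74 to -0.52. GH3.3 in FL3 turned to 0.26 against Col-0 alone. IAA29 in dC26 passed at -1.26 in the 2-group fit and without both dC27 arrays, with -1.42 to -1.09 over single left-out arrays, and GH3.3 in dC26 at -0.99 against VC alone. For FL3 minus dC lines, IAA29 and WES1 passed without both dC27 arrays, at 1.48 and 1.21, a setting that leaves FL3 minus dC26. Single left-out arrays gave 1.49 to 2.21 for IAA29, 0.70 to 0.82 for WES1 and 0.80 to 1.01 for GH3.3. For dC26 minus dC27 the 2-group fit ended the calls of WES1 (-0.90) and GH3.3 (0.91), and that of GH3.3 also ended with the replicate block (0.91), quantile normalization (0.88) and a prior without trend (0.91). Over single left-out arrays these differences were 0.028 to 1.47 for IAA29, -1.02 to -0.77 for WES1 and 0.71 to 1.12 for GH3.3, and IAA29 passed without dC27 replicate 2. The replicate block changed no other call of the 3 genes. VC minus Col-0 changed sign for IAA29 (-0.30 to 0.37) and WES1 (-0.20 to 0.26) over single left-out arrays, and for WES1 with median centring (-0.0049), with no call in any of them.

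The number of the 24 pathway genes called in FL3, 1 as reported, was 2 with quantile normalization, without the dimmest probe sets, with a robust prior, in the 2-group fit and without both dC27 arrays, 0 against Col-0 alone, and 0 to 2 over single left-out arrays. In dC26 it was 2 as reported, 1 against Col-0 alone, 3 against VC alone, in the 2-group fit and without both dC27 arrays, and 1 to 3 over single arrays, and in dC27 6 as reported and 3 to 6 over single arrays. For FL3 minus dC lines it was 0 as reported, 2 without both dC27 arrays and 0 to 3 over single arrays, and for dC26 minus dC27 2 as reported, 1 with the replicate block, quantile normalization or a prior without trend, 0 in the 2-group fit and 0 to 4 over single arrays. Uncalled differences that changed sign were those of HAT2 in FL3 (-0.11 against VC alone, -0.29 to 0.34 over single arrays), in dC26 (-0.0040 against VC alone, -0.066 to 0.33) and in the truncated lines (0.13 without both dC27 arrays), and of IAA18 in dC26 (0.0094 against VC alone, -0.27 to 0.13). Over all settings the number of probe sets called ran from 57 to 803 in FL3 (611 as reported), 1005 to 3723 in the truncated lines (2972), 71 to 1727 in dC26 (617), 2366 to 4134 in dC27 (3797), 2 to 543 for FL3 minus dC lines (47), 16 to 1448 for dC26 minus dC27 (670) and 0 to 48 for VC minus Col-0 (6). The lowest count for the truncated lines, 1005, came without both dC27 arrays and so from dC26 alone. The cause of these shifts was not tested. With dim probe sets, changes near background could not be resolved.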
